A study of Mus musculus and Bos taurus with 2 samples.

Results

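The Tcstv-like genes of the mouse 2-cell embryo described here are Tcstv1, Tcstv3, Gm20767, Gm21761, Gm8953, B020031M17Rik and D13Ertd608e. They were chosen by name because each had at least 1 transcript model in the mouse library, and they are 7 of the 15507 gene names that had a model there. The mouse library was made from about 200 late 2-cell embryos, obtained by in vitro fertilization of oocytes from superovulated mice of the outbred Slc:ICR stock, kept in KSOM medium and collected 36 h after insemination. The other library of the study came from about 200 bovine embryos of the 8-cell to 16-cell stage, produced in vitro with Japanese Black sperm and oocytes of Japanese Black cattle or their F1 cross with Holstein, and collected 72 h after insemination. In both, cDNA of the polyadenylated RNA was PCR-amplified for nanopore sequencing, and the authors deposited the transcript models assembled from the long reads. The labels name no edited allele and no treatment beyond in vitro production.

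Tcstv genes (2-cell-stage variable group) are known in the mouse as genes that are switched on when the embryonic genome becomes active, and again in the rare 2-cell-like cells of embryonic stem cell cultures. Tcstv1 and Tcstv3 have been linked to telomere lengthening in mouse embryonic stem cells. The family lies in tandem and inverted copies, and near-identical copies make it hard to place a read on 1 gene.

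A transcript model is an exon chain built from overlapping reads. Each species had 1 library and the models carry no read count, so a gene's level, its error and the read depth behind a model are unknown, and no test was possible. A missing model says only that none was built, not that the gene was silent. The name Tcstv-like cluster of chromosome 13 holds for 6 of the 7 genes, while Gm8953 lies on chromosome 5. No name beginning with Tcstv and no member name occurred among the 13938 gene names of the bovine models. That search used mouse names, so it cannot find a relative that is unnamed or has another name in cattle.

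The 7 genes read alike, to differing degrees, at the start of the coding sequence. The lines below give the first 90 bases from the start codon, 5′ to 3′, to show which bases separate the members from Tcstv1. Capitals mark a base that differs from the base of Tcstv1 at that position. For Gm8953, which has no annotated coding sequence, the line gives the stretch that aligned with the start of the BC147527 coding sequence. BC147527 is a family gene that is not a member. The letters are those of GENCODE M21 transcripts on GRCm38 (mm10), so they show the reference genome and not the embryos' own alleles.
Tcstv1: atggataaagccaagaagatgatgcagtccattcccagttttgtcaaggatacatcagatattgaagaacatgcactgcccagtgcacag
Tcstv3: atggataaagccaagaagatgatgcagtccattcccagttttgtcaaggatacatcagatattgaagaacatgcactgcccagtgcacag
Gm20767: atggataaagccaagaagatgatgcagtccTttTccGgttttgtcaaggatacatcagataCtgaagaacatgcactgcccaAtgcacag
Gm21761: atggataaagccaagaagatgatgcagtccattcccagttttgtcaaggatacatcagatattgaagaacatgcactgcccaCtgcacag
Gm8953: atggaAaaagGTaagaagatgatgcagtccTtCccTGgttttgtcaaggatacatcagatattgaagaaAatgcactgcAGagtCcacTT
B020031M17Rik: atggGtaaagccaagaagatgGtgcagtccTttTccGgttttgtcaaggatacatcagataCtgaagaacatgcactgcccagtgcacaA
D13Ertd608e: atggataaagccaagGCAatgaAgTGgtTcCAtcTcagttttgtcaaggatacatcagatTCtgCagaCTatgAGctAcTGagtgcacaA
All 7 stretches began with ATG and aligned without a gap, and 57 of the 90 positions were identical in all 7. Tcstv3 held the same 90 bases as Tcstv1, and Gm21761 differed from Tcstv1 at 1 base. Gm20767 differed from it at 5 bases, B020031M17Rik at 7, Gm8953 at 13 and D13Ertd608e at 21.

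Over the whole coding sequence the 6 members that have one formed a close group of 5 with D13Ertd608e apart. In global alignments of the 15 pairs the median identity was 90.6%. Among the 10 pairs without D13Ertd608e, identity lay between 89.5% and 98.2% with a median of 94.7%, whereas the 5 pairs with D13Ertd608e lay between 79.2% and 83.1%. Gm20767 and Gm21761 were the closest pair, with 9 mismatches in 510 aligned bases. The 2 named Tcstv genes differed more from each other, with 27 mismatches in 510 aligned bases (94.7%), than either did from Gm21761 (95.5% for Tcstv1 and 95.7% for Tcstv3). How reads were divided between such copies is not given in the sources used here, so which copy a model belongs to is uncertain for all members.

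**Figure D1:**
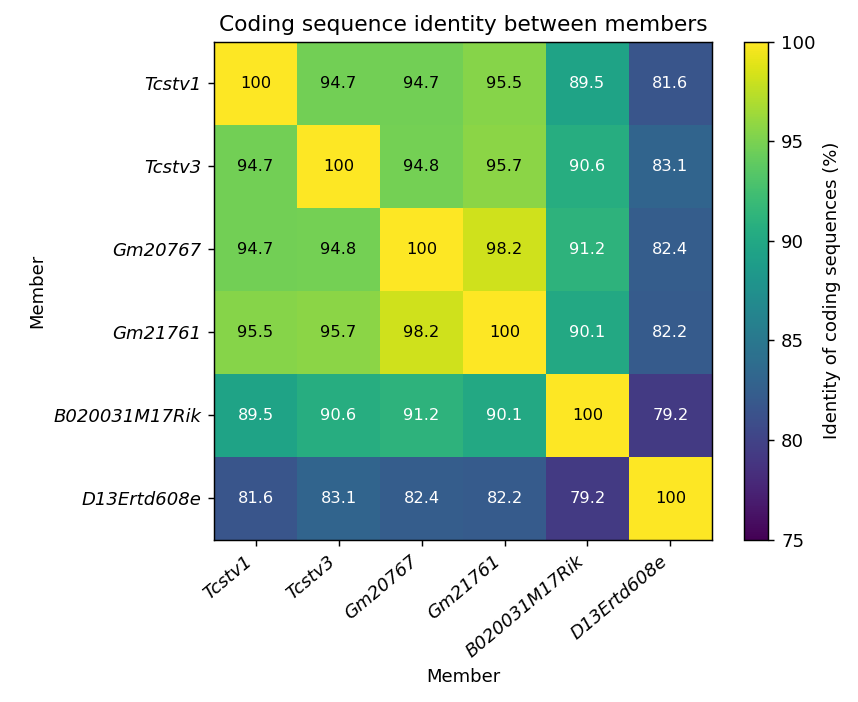
Percent identity of annotated coding sequences, counted over aligned bases, for each pair of the 6 members that have one (both axes list the genes; colour and number give the identity). The row and column of D13Ertd608e stay between 79.2% and 83.1%, and the cell for Gm20767 and Gm21761 reads 98.2%.

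The 7 genes had 11 sense models, which are models on the strand of the gene that share exons or junctions with its reference transcript. The choice of genes used these models, so their number is a description and nothing is read from it. In the library as a whole, 28.2% of genes in the RefSeq table and 53.5% of its protein-coding genes had a sense model. A single sense model stood for 5 of the 7 members, Tcstv1, Tcstv3, Gm21761, B020031M17Rik and D13Ertd608e, and 48.8% of all genes with a sense model had exactly 1. Gm8953 had 2 models and Gm20767 had 4, a number reached by 16.5% of the genes with a model. All 7 members had at least 1 model that the authors' class code marks as an exact match, against 72.5% of genes with a sense model. Counted by model, 8 of the 11 sense models of the members were exact matches. An exact match has the intron chain of a reference transcript, except in Gm8953, whose match is a single exon without introns. For 5 members with 1 RefSeq transcript and a spliced exact match, both ends of the match fell on the RefSeq ends to the base. The same was true of 82.9% of such genes in the library, and whether those ends were read or taken over from the reference was not tested.

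Each member's position on mm10 is that of its gene in RefSeq. Tcstv1 lies at chr13:119893387-119894785 on the minus strand, and its 1 sense model had exons of 140 and 736 bp. Tcstv3 lies at chr13:120316862-120318261 on the plus strand, and its model had exons of 155 and 723 bp. B020031M17Rik lies at chr13:119949357-119950806 on the minus strand, with exons of 185 and 740 bp, and D13Ertd608e at chr13:119845361-119846690 on the plus strand, with exons of 167 and 644 bp. These 4 models thus had the same plan of a short first exon and a last exon several times as long. RefSeq lists D13Ertd608e as a miscellaneous RNA and GENCODE as protein-coding.

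In all 9 models of the 6 coding members, the whole annotated coding sequence sat in the last exon. The first exon and, where present, the middle exon lay entirely before the start codon. In 8 of the 9 models the start codon came after 28 bases of the last exon, and in the model of D13Ertd608e after 25 bases. Coding length with the stop codon was 522 bp in B020031M17Rik, 516 bp in Tcstv1 and Gm21761, 510 bp in Tcstv3 and Gm20767 and 456 bp in D13Ertd608e. After the stop codon the models ran on for 163 to 202 bases, and the intron before the last exon measured 519 to 549 bp. D13Ertd608e had the shortest coding sequence, last exon, last intron and stretch after the stop codon of the 6 genes. The spliced length of the 11 sense models ran from 696 to 1427 bp with a median of 906 bp, against a median of 1648 bp over the 42028 mouse models.

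**Figure D2:**
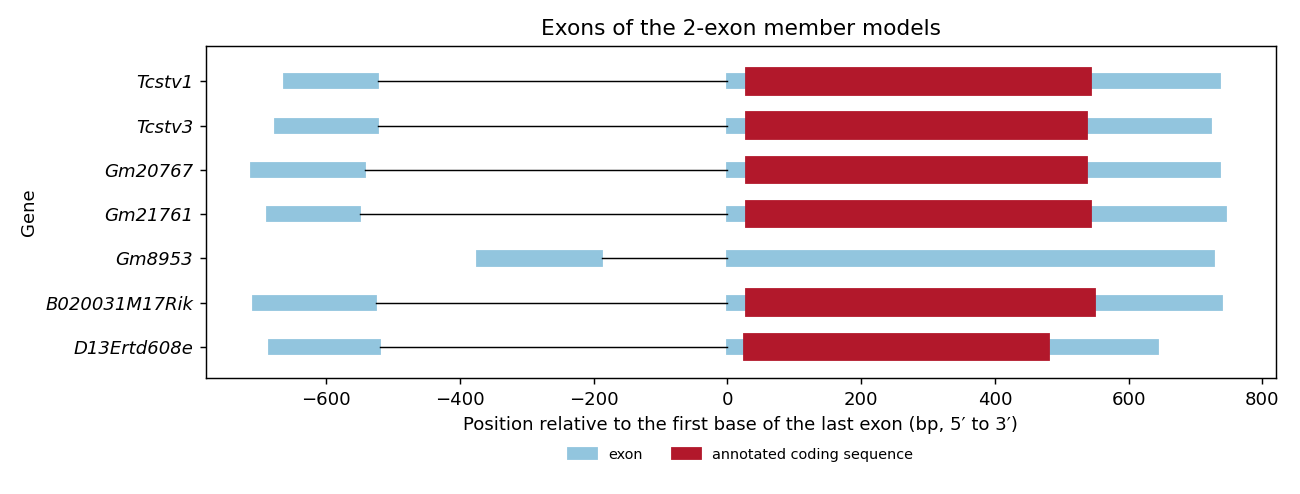
Exons (light boxes), last intron (line) and annotated coding sequence (tall boxes) of the 7 member models with 2 exons, drawn to scale in bp from the first base of the last exon. The 6 coding members have the start codon 25 or 28 bases into the last exon and an intron of 519 to 549 bp, and Gm8953 has an intron of 187 bp and no annotated coding sequence.

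Gm21761 lies at chr13:119912035-119913468 on the minus strand, and its 1 sense model had exons of 139 and 746 bp. Its intron of 549 bp is that of the RefSeq transcript that the model matched exactly. The donor site lies 19 bases upstream of the one annotated in GENCODE, which gives 530 bp with the same acceptor. Gm20767 showed the same 19-base shift among its own models, where 3 had an intron of 542 bp and 1 an intron of 523 bp. AF067061, a neighbouring family gene that is not a member, had 1 model of each kind, with introns of 542 and 523 bp. In Gm20767 and AF067061 both kinds of intron occurred in exact-match models, so both are in the reference annotation that the class codes use. The 19 bases lie before the start codon, so both forms keep the whole coding sequence. This comparison was made after the intron lengths had been seen.

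The model of Gm21761 began at its RefSeq start, and so did both models of AF067061, the family gene whose transcript was 96.7% identical to that of Gm21761 over 824 bp. These models carry the exact-match code, and whether their starts were read or taken over from the reference was not tested. GENCODE places these starts elsewhere, as its minus-strand gene Gm21761 reaches up to position 119929272, with 2 unnamed models on its exons, and its gene AF067061 begins at position 120263114. Gm21761 was the only member of 7 with an entry in the RefSeq promoter table used here. Family genes with an entry numbered 3, among them Gm21761 and AF067061. The window of the third is not printed, and its matches are not given here. The 250 bases before each RefSeq start are printed 5′ to 3′ on the gene's strand, from chr13:119913469-119913718 (minus) and chr13:120262845-120263094 (plus) of RefSeq GRCm38.p6, because a pair of genes on opposite strands carries nearly the same sequence there. Capitals mark matches on either strand to a TATA-box form and to a homeodomain core, both spelled out after the lines.
Gm21761: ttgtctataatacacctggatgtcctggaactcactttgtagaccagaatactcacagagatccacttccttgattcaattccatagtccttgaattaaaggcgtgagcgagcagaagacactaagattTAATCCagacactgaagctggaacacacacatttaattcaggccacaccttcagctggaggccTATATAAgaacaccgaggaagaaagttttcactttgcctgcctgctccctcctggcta
AF067061: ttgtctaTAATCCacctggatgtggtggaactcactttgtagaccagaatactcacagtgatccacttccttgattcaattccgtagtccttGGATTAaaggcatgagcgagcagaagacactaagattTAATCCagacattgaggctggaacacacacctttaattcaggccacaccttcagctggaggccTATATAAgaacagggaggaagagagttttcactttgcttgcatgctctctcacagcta
The windows were identical at 231 of 250 positions (92.4%) with no gap. The TATA-box form TATATAA occurred 1 time in each, with its first base 58 bases before the start, and 3.04% of the 32851 promoter windows of the same length held it. The core bound by homeodomain factors such as the mouse OBOX proteins is the hexamer GGATTA, read as its reverse complement where it lies on the other strand. It had 1 match in Gm21761 and 3 in AF067061, and 6.25% of the windows held at least 1. The matches do not overlap each other, and they are letters in a window, not measured binding.

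Gm20767, at chr13:120140246-120155335 on the plus strand, had the most starts of the 7 genes among models named for them, with 4 models in 3 start groups. Gm21761, whose 3-exon GENCODE transcript was 98.4% identical to that of Gm20767 over 1374 bp, had 1 named start. However, the 2 unnamed models on its GENCODE exons began at positions 119929037 and 119935771, the second of them upstream of the GENCODE gene. The count of starts therefore depends on how models were named. Models 1 and 2 in the plot of exon structures began at position 120133741, which is 6505 bp upstream of the annotated gene start. Their first exon of 117 bp overlapped no exon of GENCODE and none of an exact match on that strand. It was spliced over introns of 19980 and 19899 bp to a middle exon of 219 or 300 bp, and then to the common last exon of 739 bp. Of the 10 spliced sense models of the members, these 2 had an unannotated first exon, and 14.9% of the 30186 spliced sense models of the library had one. The same start group held a model of Gm52031, a RefSeq pseudogene further along, with a first exon of 117 bp and a first intron of 26184 bp.

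The other Gm20767 models followed annotated transcripts. Model 3 had exons of 452, 238 and 737 bp and began at the annotated gene start, 13140 bp before its middle exon. Model 4 had exons of 170 and 736 bp and began at position 120153887, close to the last exon, like the single models of the other members. All 4 models carried the coding sequence of 510 bp, so the different starts changed only the part before it.

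**Figure D3:**
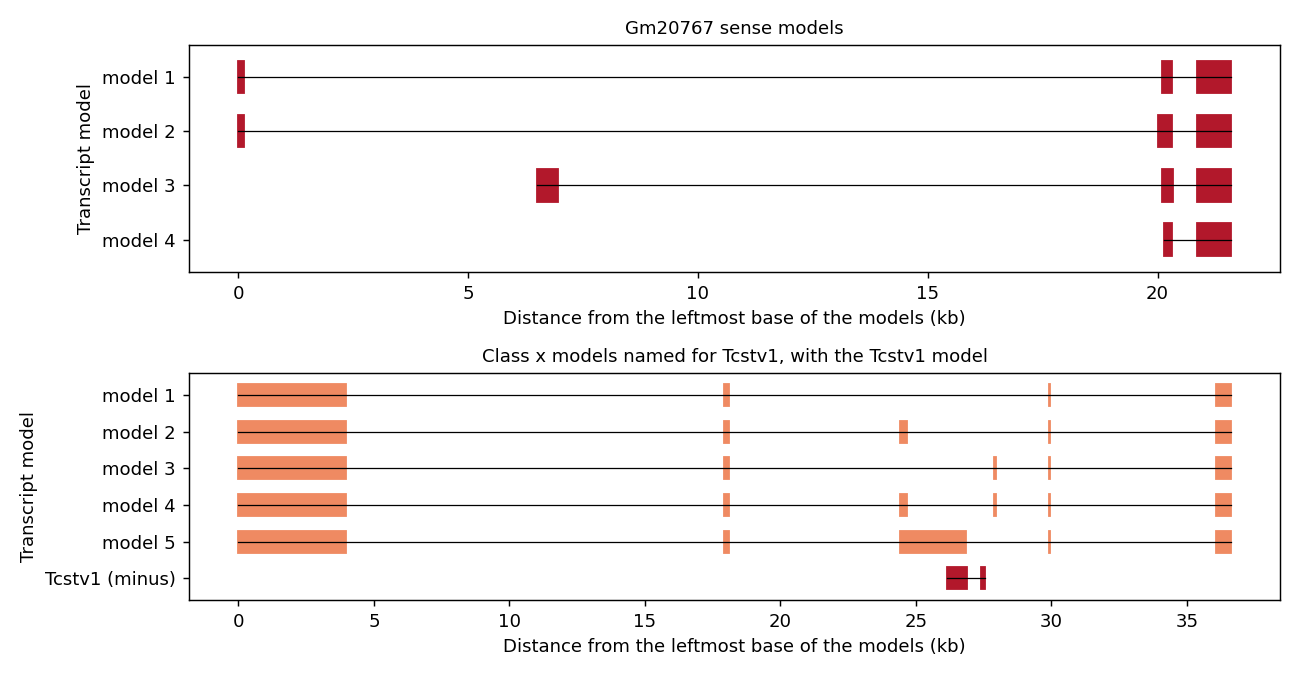
Exons (boxes, the shortest widened so that they can be seen) and introns (lines) of the 4 Gm20767 sense models and of the 5 opposite-strand models named for Tcstv1, in kb from their leftmost base. The Gm20767 models share their last exons and differ in start, and 1 of the 5 lower models has an exon over the Tcstv1 model drawn beneath them.

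Gm8953 stood apart in position, annotation and structure. It lies at chr5:12354680-12355375 on the minus strand, where RefSeq lists a pseudogene and GENCODE a non-coding RNA of 2 exons. One model matched the RefSeq record as a single exon of 696 bp, and the other had exons of 188 and 728 bp with the 187 bp intron of the GENCODE transcript. An intron of 187 bp also occurred in BC147527, a coding family gene of the chromosome 13 region with 2 models. The Gm8953 transcript was 96.4% identical to that of BC147527 over 825 bp. Against the 504 bp coding sequence of BC147527 it aligned from the start codon on, with 479 of 503 aligned bases identical (95.2%) and 1 base of the coding sequence missing in Gm8953.

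On the opposite strand, 5 models were named for Tcstv1 with class code x, the code for a model on the strand opposite to a reference gene. Tcstv1 was the only member with such models, and 4.14% of the genes with a sense model had any. All 5 began at position 119867247 and ended at position 119903868 of chromosome 13, and they ran over 36622 bp from 26140 bp left of the Tcstv1 gene to 9083 bp right of it. Each of the 5 models held the same 4 exons, of 3976, 189, 32 and 553 bp. The 3 further exons were optional, with 265 bp in 2 models, 71 bp in 2 and 2453 bp in 1. Spliced lengths were 4750, 5015, 4821, 5086 and 7203 bp, several times that of the Tcstv1 transcript of 876 bp.

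The code x did not mean shared exon bases in most of these models. Only the model with the 2453 bp exon had exon bases within the Tcstv1 gene, 720 bp of them, of which 719 bp lay over its GENCODE exons. The other 4 crossed Tcstv1 with an intron. No GENCODE exon on the models' own strand was overlapped by any of them. Whether the library protocol as processed fixed the strand of each read is not given in the sources used here.

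The 6 members of chromosome 13 bounded a stretch of 472.9 kb, chr13:119845361-120318261, that held 44 models. Of these, 9 were sense models of members, 5 were the class x models of Tcstv1, 11 were sense models of 7 other genes and 2 were class x models named for Gm20763 and Gm39470. The remaining 17 had no gene name and the code u, for models outside reference genes. They made up 38.6% of the models in the stretch, against 13.3% of the library (5601 models), and 4 of the 17 overlapped GENCODE exons on their strand. From left to right, D13Ertd608e lay on the plus strand, Tcstv1, Gm21761 and B020031M17Rik on the minus strand within 105.4 kb of the left end, and Gm20767 and Tcstv3 on the plus strand from 288.4 kb onwards. The plus strand held 31 of the models and the minus strand 13.

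**Figure D4:**
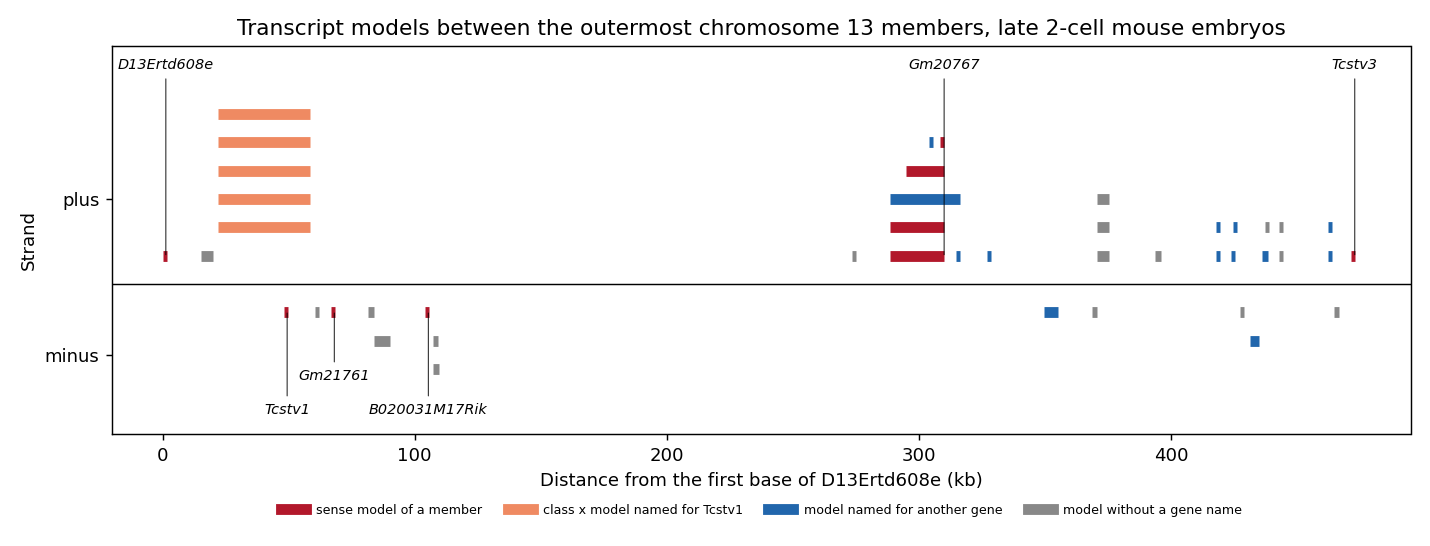
Positions of the 44 models in kb from the first base of D13Ertd608e, plus strand above and minus strand below, coloured by sense models of members, class x models named for Tcstv1, models named for other genes and unnamed models (the shortest bars are widened so that they can be seen). No model lies in the 163.5 kb between those near B020031M17Rik and those before Gm20767.

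The longest stretch without a model measured 163.5 kb (chr13:119955179-120118691), between B020031M17Rik and Gm20767. GENCODE places 9 genes in it, 2 of them protein-coding, Gm21188 and Gm36079. Beyond Tcstv3 no model was assembled to the end of chromosome 13. On the other side the nearest gene with a sense model was AF067063, which had 2 models, the nearer of them ending 13.93 kb from D13Ertd608e.

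A sequence search placed the 7 members in a family of 14 GENCODE genes, of which 12 lie on chromosome 13. Of the 7 family genes that are not members, AF067063, AF067061 and BC147527 had 2 named sense models each and Gm21818 had 1. Gm21762 and Gm21731 each had 1 model without a gene name on their exons, and Gm49052, a processed pseudogene on chromosome 14, had none. Gm21762 was 99.9% identical to D13Ertd608e over 704 bp, and Gm21818 was 95.7% identical to Tcstv1. AF067063 and Gm21731 were more distant, with 79.3% and 78.8% identity to Gm21761, and both had a last intron of 1371 bp. All 12 family genes with a coding sequence had it in 1 exon, and 8 of them had the start codon after 28 bases of that exon.

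The remaining genes with a sense model in the stretch were Gm52031 and Gm52032, RefSeq pseudogenes with 2 models each, Gm20769, a processed pseudogene with 1, and Gm39470, a non-coding RNA with 1. Exon lengths were then compared over all models of 2 exons. The 6 member models of chromosome 13 with 2 exons had a first exon of 139 to 185 bp, an intron of 519 to 549 bp and a last exon of 644 to 746 bp. Of the other 5881 models of 2 exons in the library, 1 fell within all 3 ranges (0.017%), and it was a model of AF067061. With the ranges widened by 10% at each end, 13 models fell within them, and 8 of the 13 lay in the stretch, where there were 20 other models of 2 exons. These 8 were 2 models of AF067061, 1 each of Gm21818 and Gm52031, and 4 without a gene name. The 4 unnamed models had first exons of 187 to 195 bp and introns of 515 to 591 bp, at 3 positions on the plus strand. The ranges were taken from the members after their values had been seen, so these counts describe the library and test nothing.

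**Figure D5:**
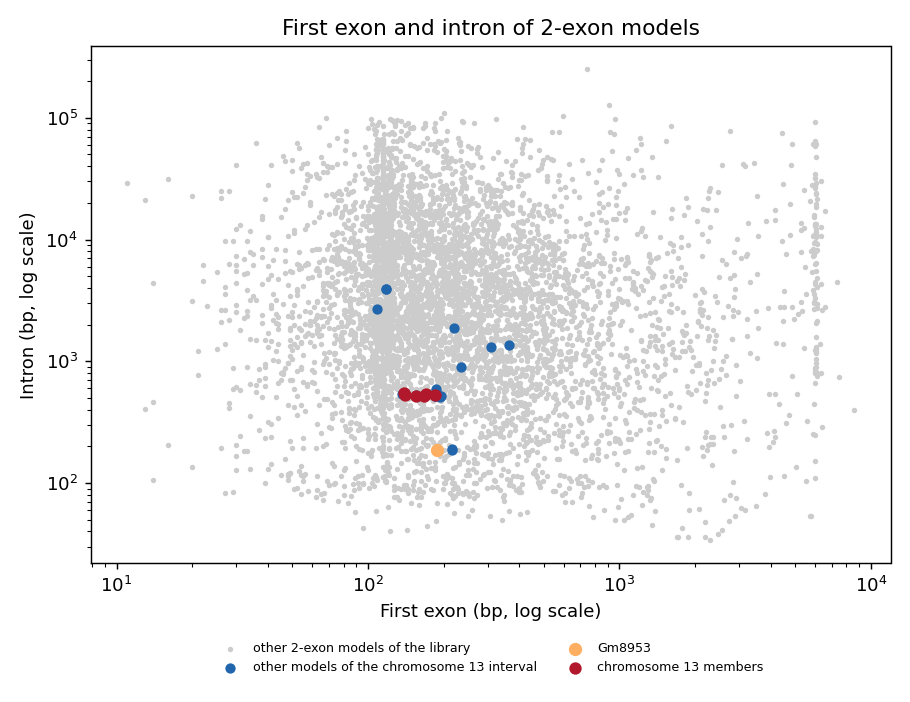
Length of the first exon against length of the intron, both in bp on log scales, for every mouse model of 2 exons (1 point per model). The 6 chromosome 13 member models lie together at introns of 519 to 549 bp, within the cloud of library models, whose last exons are not plotted, and Gm8953 lies below them at 187 bp.

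Short first exons of one size class recurred in the stretch. A first exon of 110 to 120 bp, a class that includes the 117 bp exon of Gm20767 and was picked after seeing it, opened 7 of the 40 spliced models there (17.5%), in 5 start groups, against 2600 of 36486 in the library (7.13%). Models of 1 start group share that exon, so the 7 are not independent. No repeat annotation was used here, and no sequence was read for these exons, so whether they lie in transposable elements was not tested.

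Among names looked up beside the members, 4 of 18 other Tcstv-like symbols had a sense model (22.2%, 6 models), with AF067061 and BC147527 at 2 and Gm21818 and BC080696 at 1. Only 6 of the 18 symbols were in the RefSeq table, so the missing ones could not have been found by name. BC080696 lies on chromosome 5 and did not meet the limits of the sequence search for the family. The 2-cell burst is the wave of transcription in which the mouse embryonic genome starts up. This list was made with earlier results of these data known, so its share is a description and nothing is read from it. Of 26 other genes of the burst, 21 had a sense model (80.8%, against 53.5% of all protein-coding genes). These 21 had 44 models with a median of 2 per gene, where the members had 11 with a median of 1. The difference was not tested, since genes of these lists differ in exon number and a model count is no level.

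Markers of cells that could come along with the embryos were looked up in the same way. Of 14 cumulus and granulosa cell markers 8 had a sense model (57.1%, 13 models), close to the 53.5% of all protein-coding genes. Amhr2 had 4 models, Lhcgr and Tnfaip6 had 2 each, and Fshr, Cyp11a1, Star, Inhba and Fst had 1 each. Has2, Ptx3, Ptgs2, Vcan, Amh and Foxl2 had none. Of 8 sperm markers 2 had a sense model, 1 model each for Prm2 and Tnp1, a smaller share than that of all protein-coding genes. Their part in the models of the members was not tested.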

How the data were processed

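Per the file headers and attributes, the deposited tables hold StringTie transcript models as exon positions, with a gene name, class code and start group, and the authors gave no abundance, coverage or score with them. Per the submitters' processing notes the builds are mm10 and bosTau9. The sources used here do not name the aligner, filters or versions, and reads dropped or merged in assembly would remove models of rare or near-identical copies. Depth is unknown.

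Members and lists were chosen with earlier results of these data known. Sense models have class code =, c, k, m, n, j or o. Every member is named, as is every gene with a sense model inside the chromosome 13 stretch or next to it. Annotation came from GENCODE M21 and RefSeq (GRCm38.p6); 7 of 11 distinct member introns were identical in GENCODE. Coding sequences were aligned globally (Biopython 1.88, Python 3.11.15) and identity counted over aligned bases. The family was found with blastn 2.17.0 (e-value 1e-05, at least 70% identity, 60% of the shorter transcript and 300 bp). Alignment identity was tested on simulated sequences that differed by substitutions only, and exon order and overlap on made-up examples. Alignment with gaps and the family search were not tested. Figures used matplotlib 3.10.9. With 1 library per species no test was made. Planned protein identities were not computed.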

Additional observations from a re-analysis of the deposited data

How the results depend on the processing

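The number of opposite-strand models over the members was 1 where exon bases had to fall within the gene, and 5 both with 5000 bp added on each side and where introns counted as overlap, the last of these chosen after seeing the data. The chromosome 13 stretch held 44 models, and 72 with 500000 bp added on each side. The other settings stayed within 1.5 times of the reported value: all 7 members had a sense model under every rule, sense models numbered 8 to 13, unannotated first exons 2 or 3 (the third being the 188 bp exon of Gm8953 when only exact matches of the library counted as annotation), and the median coding identity was 89.1% over the longer sequence. No paired analysis was possible because each species had 1 library. Depth, which is unknown, limits every absence of a model. The close copies limit every assignment of a model to 1 gene.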

Other observations

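The long first exon of Gm20767, which measures 452 bp in the annotated transcript that model 3 follows, began with a stretch also found in miRNA genes. Its first 74 bases matched 49 annotated miRNA genes by blastn, over 73 or 74 bases and with 94.6% to 98.6% identity. Matches this short were kept for miRNA genes only, so whether the stretch also occurs in genes of other types was not tested. They were collected for Gm20767 alone, so whether Gm21761 or another member has such matches was not tested. The 452 bp exon of Gm20767 lies 13140 bp before the middle exon of the model and holds no coding sequence.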
